A study of Canis lupus familiaris with 16 samples.

Results

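The Notch members examined here were 10 genes: the 4 receptors *NOTCH1*, *NOTCH2*, *NOTCH3* and *NOTCH4*, the 3 ligands *JAG1*, *JAG2* and *DLL4*, and the 3 target genes *HES1*, *HEY1* and *HEYL*. They were chosen by name as receptors, ligands and targets of the pathway, and all 10 were found among the 41818 genes of the count table. Expression was measured by RNA-seq of formalin-fixed, paraffin-embedded soft tissue sarcomas from dogs of several breeds. The 16 tumors fell into 3 types by the molecular identity given in their labels. There were 4 fibrosarcomas (FS, dogs of 9 to 13 years), 6 peripheral nerve sheath tumors (PNST, 8 to 13 years) and 6 perivascular wall tumors (PWT, 2 to 14 years). Molecular identity was itself set from gene expression. It differs from the histological diagnosis in 2 tumors, S1-10 (PWT by histology, PNST here) and S2-08 (FS by histology, PWT here).

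Notch receptors are single-pass membrane proteins that are cut when a Jagged or Delta-like ligand on a neighboring cell binds them. The released intracellular domain enters the nucleus, joins RBPJ and the MAML coactivators, and switches on genes of the HES and HEY families of transcriptional repressors. NOTCH3 is the receptor best known from pericytes and vascular smooth muscle cells, with HEYL among its targets, while NOTCH4 and DLL4 are best known from endothelium.

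Between 507728 and 4311876 reads per tumor fell on genes, with a median of 2023563.5 in FS, 2984704 in PNST and 1611104.5 in PWT. The 9 tumors whose names begin with S1 were sequenced in 3 runs each and the 7 that begin with S2 in 1 run. The prefix was unevenly spread, with 3 S1 tumors among the FS, 5 among the PNST and 1 among the PWT. S1-04 and S1-05 have identical clinical entries in the labels and may come from 1 dog. Levels are given as CPM, counts per 1e6 reads on genes after TMM scaling. They are not divided by transcript length, so they can be compared between tumors but not between genes. In these bulk samples, fewer cells of a type and less RNA per cell cannot be told apart. A gene was called a differentially expressed gene (DEG) at an adjusted p-value under 0.05 (edgeR's quasi-likelihood test, adjusted over the 15408 genes tested) and an absolute log2 fold change above 1.

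*NOTCH2* fell in FS relative to both other types, and was the only Notch member called there. In the 4 FS, *NOTCH2* stood at 1006 CPM in S1-02, 667 in S1-11, 510 in S1-12 and 689 in S2-06. In PNST it ranged from 1387 to 2189 CPM (median 1501), and in PWT from 1136 to 2053 CPM (median 1369). All 12 PNST and PWT thus lay above every FS. The mean was 718 CPM ± 208 (SD, n = 4) in FS, 1617 ± 307 (n = 6) in PNST and 1467 ± 332 (n = 6) in PWT. In FS against both other types pooled, *NOTCH2* had a log2 fold change of -1.10 (SE 0.264, 95% interval -1.67 to -0.53, edgeR adjusted p = 0.0118).

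Of the 9 members tested in that comparison, 1 was called, while 9.46% of all genes tested were called. One member, *NOTCH2*, was also below every other tumor in FS, as were 1.64% of all genes tested. *NOTCH2* was called against each other type separately as well, at -1.17 against PNST (SE 0.275, edgeR adjusted p = 0.0157) and, in PWT against FS, at 1.03 (SE 0.273, edgeR adjusted p = 0.0202). Against PNST 7.13% of all genes were called, and between PWT and FS 11.2%. PWT and PNST were not called different for this receptor (log2 fold change -0.14, 95% interval -0.65 to 0.37). With tumors grouped by histology, which places S2-08 (1627 CPM) among the FS, the difference in FS was -0.77 and no longer called (edgeR adjusted p = 0.189). The call held with the name prefix as a term (-1.12, edgeR adjusted p = 0.00978) and was lost at the same size in the S1 tumors alone (-1.10, edgeR adjusted p = 0.0851). The call against PNST was lost with histology groups (-0.82, edgeR adjusted p = 0.320), in the S1 tumors alone (-1.16, edgeR adjusted p = 0.0919) and without 5 tumors high in epidermal markers (-1.27, edgeR adjusted p = 0.0676). The call in PWT against FS was lost with histology groups (0.72, edgeR adjusted p = 0.252), when the prefix entered the model (1.04, edgeR adjusted p = 0.0646) and when S1-11, S1-12, S2-08 or S2-11 was left out (0.90 to 1.00). Over all genes, histology groups gave 205 calls in FS against both other types, where molecular identity gave 1457. Against PNST alone the numbers were 0 and 1099, and in PWT against FS they were 5 and 1726.

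*NOTCH1* lay the other way. The FS values were 93.2 CPM in S1-02, 129 in S1-11, 173 in S1-12 and 96.4 in S2-06. PNST ranged from 43.8 to 119 CPM (median 55.3) and PWT from 20.2 to 58.7 CPM (median 53.2). FS and PWT did not overlap, whereas S1-04 and S1-05 put 2 PNST inside the range of FS. In PWT against FS the log2 fold change was -1.41 (SE 0.353, 95% interval -2.17 to -0.64, edgeR adjusted p = 0.0153). Together with *NOTCH2*, 2 of 9 members tested were called there, where 11.2% of all genes were. The same 2 had FS and PWT apart, against 8.6% of all genes with no overlap between these types in either direction. The call of *NOTCH1* was lost with the name prefix in the model (-1.11, edgeR adjusted p = 0.103) and with histology groups (-1.04, edgeR adjusted p = 0.196). With histology groups 5 of all genes were called in PWT against FS.

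Against both other types pooled, *NOTCH1* missed the threshold in FS (log2 fold change 1.03, edgeR adjusted p = 0.0543) and in PWT (-1.01, edgeR adjusted p = 0.0874). It passed in 7 of 29 other settings for FS, among them without S1-04 (1.17, edgeR adjusted p = 0.0206) or without S1-05 (1.16, edgeR adjusted p = 0.0234), and in 2 of 29 for PWT. Within the S1 tumors its value in FS was 0.81 (edgeR adjusted p = 0.237), and within the S2 tumors its value in PWT was -0.74 (edgeR adjusted p = 0.592). In PWT 0 of 9 members were called, where 2.12% of all genes were. In PNST 0 of 9 members were called, and the background was 0%, since no gene was called (2415 genes at an unadjusted p under 0.05 in edgeR, and 291 called by DESeq2). Between PWT and PNST 0 of 9 members were called, with 0.169% of all genes called.

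*NOTCH1* is also expressed in epidermis, where Notch signaling drives keratinocyte differentiation, so the epidermal markers are given beside it. None of the 6 epidermal markers was called in any pooled comparison. Of all genes, 9.46% were called in FS, 0% in PNST and 2.12% in PWT. The intervals of the markers were wide, for *DSP* in FS from -1.63 to 4.5 (95%), so a missing call does not show equal levels. Their summed level ranged from 18.5 to 1390 CPM in FS, from 9.35 to 1266 CPM in PNST and from 4.18 to 966 CPM in PWT. The medians were 460 CPM in FS, 12.6 in PNST and 10.6 in PWT. The summed level of the 6 epidermal markers (such as *KRT5*, *KRT14* and *KRT10*) was 1390 CPM in S1-02, 812 in S1-12, 911 in S1-04, 1266 in S1-05 and 966 in S2-03. It was 108 CPM in S1-11 and at most 18.5 CPM in the other 10 tumors. The 2 PNST high in *NOTCH1* were thus the 2 PNST high in these markers, while the PWT S2-03, also high in them, held 50.1 CPM of *NOTCH1*. The FS S2-06 held 18.5 CPM of epidermal markers and 96.4 CPM of *NOTCH1*. The part of epidermal transcripts in the difference between types was not tested. Without the 5 tumors over 500 CPM, a setting chosen after seeing the data that leaves 2 FS, *NOTCH1* was called in FS (1.28, edgeR adjusted p = 0.0284) and in PWT against FS (-1.35, edgeR adjusted p = 0.0342), while *NOTCH2* kept its size in FS but not its call (-1.20, edgeR adjusted p = 0.0615).

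**Figure D1:**
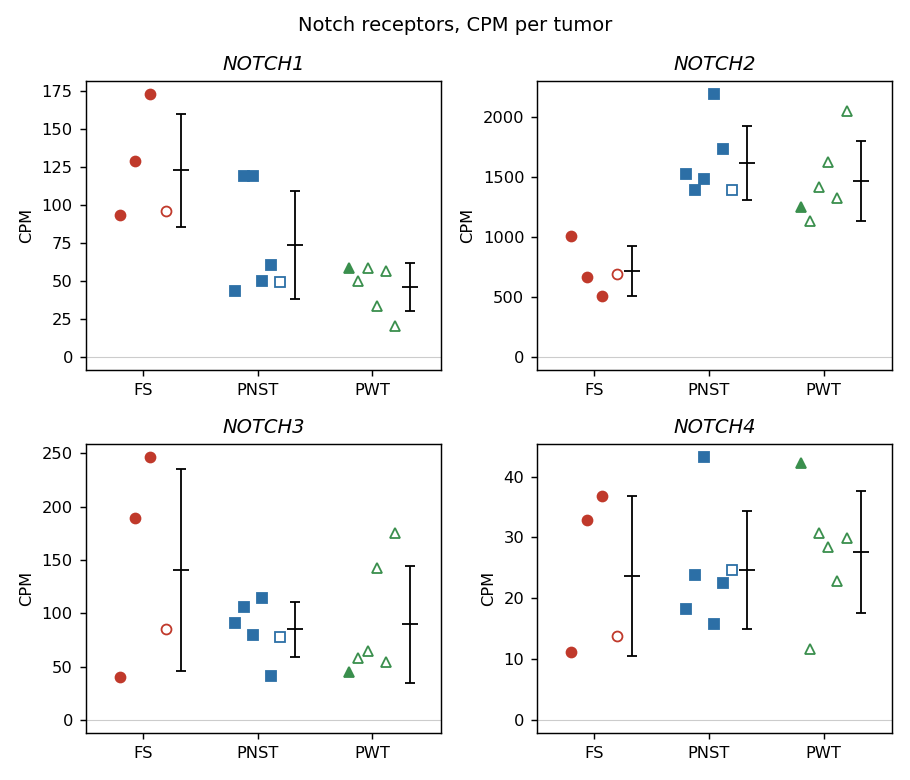
CPM of the 4 Notch receptors (vertical axes, linear) in each of 16 tumors, by type. Filled points are tumors with the prefix S1 and open points those with S2, and the black bar is the mean with 1 SD. All 4 FS lie below all PNST and PWT for *NOTCH2* and above all PWT for *NOTCH1*, and the types overlap for *NOTCH3* and *NOTCH4*.

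The ratio of *NOTCH2* to *NOTCH1* within a tumor depends on neither depth nor scaling. It was 10.8 in S1-02, 5.16 in S1-11, 2.95 in S1-12 and 7.15 in S2-06 among the FS. In PNST it ran from 11.7 to 44.0 (median 28.3) and in PWT from 21.2 to 102 (median 23.8). The highest FS and the lowest PNST lay next to each other, and no FS reached the range of the other types. The ratio combines 2 members already seen to differ and was given no test.

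**Figure D2:**
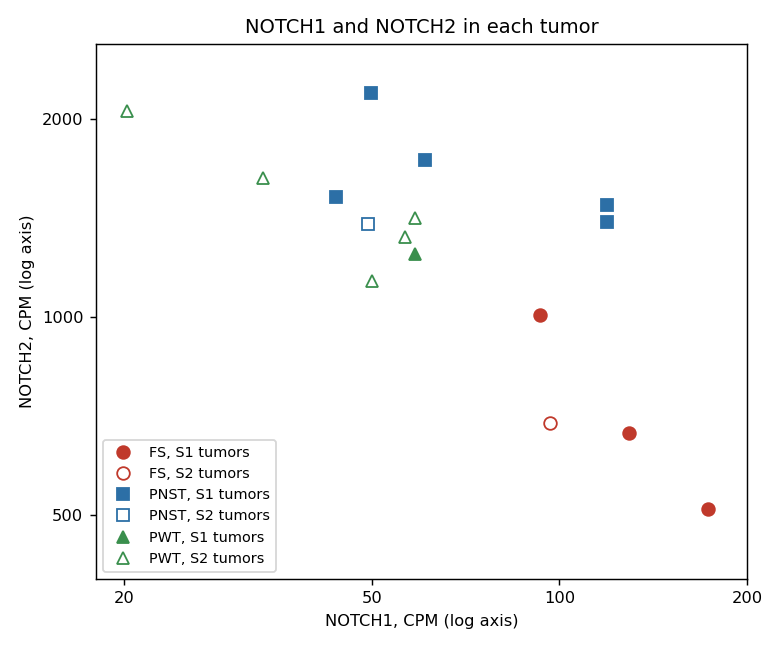
*NOTCH1* (horizontal) against *NOTCH2* (vertical) in CPM, both on log axes, 1 point per tumor, with filled points for S1 and open points for S2. The 4 FS sit at the lower right, with *NOTCH2* between 510 and 1006 CPM, and the PWT at the upper left, with *NOTCH1* at or below 58.7 CPM.

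*NOTCH3*, the receptor best known from pericytes, was not called higher in PWT, the type named for the vessel wall. PWT held 44.4 to 176 CPM (median 61.1), PNST 41.0 to 114 CPM (median 85.2), and the FS 39.8 CPM in S1-02, 190 in S1-11, 247 in S1-12 and 85.0 in S2-06. The 3 types overlapped. Within PWT, S2-08 (142 CPM) and S2-11 (176 CPM) stood above the other 4 tumors, which were between 44.4 and 64.1 CPM. In PWT against both other types the log2 fold change was -0.24 (SE 0.399, 95% interval -1.10 to 0.62, edgeR adjusted p = 0.757). In FS the value was 0.67 (95% interval -0.19 to 1.53, edgeR adjusted p = 0.316). Both values rest in part on single tumors. Without S1-12 the value in FS was 0.26 and that in PWT -0.03, without S1-02 the value in FS was 0.99, and in the S2 tumors alone the value in PWT was 0.29, none of them called.

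*HEYL*, a target of NOTCH3 in mural cells, was not called either. It ranged from 7.11 to 33.5 CPM in PWT (median 24.0), from 13.0 to 29.2 CPM in PNST (median 21.1), and stood at 11.8, 30.7, 31.3 and 13.8 CPM in the FS S1-02, S1-11, S1-12 and S2-06. In PWT against both other types the log2 fold change was 0.08 (95% interval -0.62 to 0.77, edgeR adjusted p = 0.912). S2-08, which had the second highest *NOTCH3* of the PWT, had the lowest *HEYL* of all 16 tumors. The FS S1-12 and S1-11, highest of all in *NOTCH3*, held 31.3 and 30.7 CPM of *HEYL*. Over the 16 tumors the rank correlation of *NOTCH3* with *HEYL* (Spearman's rho) was 0.04.

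The label of PWT was checked against 14 markers of pericytes and smooth muscle, of which 13 were tested. Their summed level was 402 to 872 CPM in PWT (median 475), 384 to 867 CPM in PNST (median 772) and 627 to 2102 CPM in FS (median 1189). None of the 13 was called in PWT, where 2.12% of all genes were. In FS 4 of 13 were called higher, where 9.46% of all genes were called in either direction. Among the 4 were the contractile genes *ACTA2* (log2 fold change 2.40) and *CNN1* (2.44). Both were highest in S1-11. In the FS, *ACTA2* ran from 9.32 to 213 CPM (median 55.2) and *CNN1* from 1.90 to 57.0 CPM (median 10.1). The lowest FS lay within the range of the other types in both genes. *RGS5*, a pericyte marker, was at 0.41 in PWT (95% interval -0.34 to 1.16), the highest of the 13. *PDGFRB*, the pericyte growth factor receptor, was at -0.73 (95% interval -1.57 to 0.10). The median log2 fold change of the 13 was -0.89, and the lowest was *NDUFA4L2* at -2.30 (edgeR adjusted p = 0.0816). In PWT against FS, *NDUFA4L2* (-3.03), *ACTA2* (-2.685) and *CNN1* (-2.62) were called lower. These are 3 of 13, where 11.2% of all genes were called. The median of the summed level was lowest in PWT. Of the other marker lists, 4 of 8 Schwann cell genes were tested and none was called in PNST against both other types. No gene at all was called in that comparison, so the count cannot bear on the label of PNST. *S100B* was at 2.28 there (edgeR adjusted p = 0.205) and stood at 1.45 to 76.3 CPM in PNST (median 8.31), highest in S1-09. *SOX10*, *ERBB3* and *MBP* were at 0.36, 0.31 and 0.21. *NGFR*, which was not tested, was highest in the FS S1-11 (61.4 CPM) and reached at most 2.83 CPM in PNST. The summed level of the 8 genes had a median of 49.9 CPM in FS, 51.5 in PNST and 26.1 in PWT. The 6 fibroblast genes did not go one way in FS. Of these, *COL1A1*, *COL3A1* and *LUM* were called higher there, while *DCN* was at -1.38, *PI16* at -1.22 and *PDGFRA* at -0.89, none of them called. Against PNST alone *PDGFRA* was called lower in FS (-1.18, edgeR adjusted p = 0.0498), and *COL1A1* was called lower in PWT against both other types. The 5 leukocyte and 4 adipocyte genes tested gave no call in the pooled comparisons, and none of the 4 skeletal muscle genes was tested. The summed level of those 4 was 662 CPM in the FS S1-11, 381 in the PWT S1-07 and 80.9 in the PWT S2-09. It was at most 3.36 CPM in the other tumors. The part of the pericyte markers in the *NOTCH3* values was not tested.

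Across the 16 tumors, the 5 tested genes whose log2 CPM ranked most like *NOTCH3* were *WDR5* (Spearman's rho 0.797), *ZBTB45* (0.747), *CSPG4* (0.735), *FBXO24* (0.735) and *BCL11B* (0.732). *CSPG4* encodes NG2, a pericyte proteoglycan, and its median was lowest in PWT (127 CPM in FS, 63.8 in PNST and 38.2 in PWT). For *HEYL* the nearest were *IRF2BP2* (0.844), *PPIC* (0.791), *KLF10* (0.782), *ENC1* (0.768) and *CD93* (0.765), of which *CD93* is an endothelial membrane protein. These are descriptions over n = 16 tumors that share depth and type differences, picked as the highest of all genes tested.

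*NOTCH4* and *DLL4*, the members best known from endothelium, overlapped between types. *NOTCH4* stood at 11.1, 32.9, 36.8 and 13.8 CPM in the FS S1-02, S1-11, S1-12 and S2-06, at 15.7 to 43.2 CPM in PNST (median 23.2) and at 11.7 to 42.2 CPM in PWT (median 29.2). *DLL4* stood at 10.8, 20.8, 5.53 and 7.13 CPM in the same FS, at 7.67 to 19.6 CPM in PNST (median 12.9) and at 1.5 to 20.4 CPM in PWT (median 13.4). The largest of the 3 pooled differences was 0.20 for *NOTCH4*, in PWT, and -0.14 for *DLL4*, in FS. The 12 endothelial markers summed to 284 to 645 CPM in FS, 186 to 690 CPM in PNST and 203 to 603 CPM in PWT. None was called in the 3 pooled comparisons, where 9.46% of all genes were called in FS, 0% in PNST and 2.12% in PWT. In FS they ran from -1.67 for *TEK* (95% interval -2.94 to -0.41, edgeR adjusted p = 0.0775) to 0.93 for *CLDN5*, with a median of 0.03. In PWT against FS, *TEK* was at 1.92 (edgeR adjusted p = 0.0533). S2-11, the PWT lowest in *DLL4* (2 reads), was also the PWT lowest in the endothelial markers. S1-09, lowest in them of all 16 tumors (186 CPM), held 13.0 CPM of *DLL4*, and S1-04, the highest (690 CPM), held 9.11 CPM. The part of endothelial transcripts in the *DLL4* values was not tested.

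*JAG1*, a Jagged ligand, did not pass the test in FS. It stood at 40.9 CPM in S1-02, 178 in S1-11, 306 in S1-12 and 120 in S2-06. PNST ranged from 219 to 487 CPM (median 337) and PWT from 185 to 405 CPM (median 229). Only S1-12 of the FS reached into the range of the other types. In FS against both other types the log2 fold change was -0.93 (SE 0.384, 95% interval -1.75 to -0.11, edgeR adjusted p = 0.129). Against PNST alone it was -1.12 (edgeR adjusted p = 0.107), and in PNST against both other types 0.64 (edgeR adjusted p = 0.362). S1-12 had the lowest total of all tumors, 507728 reads, and without it *JAG1* was called (-1.43, edgeR adjusted p = 0.0306) while *NOTCH2* fell just short of the fold limit (-0.97, edgeR adjusted p = 0.0384).

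*JAG2* was counted at 0 to 45 reads per tumor. In the FS it stood at 12.2 CPM in S1-02, 14.8 in S1-11 and 1.90 in S2-06, with 0 reads in S1-12, which allows up to 5.53 CPM (3 counts, counting error only). PNST ranged from 3.13 to 21.6 CPM and PWT from 1.09 to 9.69 CPM. The highest PNST were S1-05 and S1-04, the same pair that was high in *NOTCH1* and epidermal markers. No difference was called, and the 95% interval in FS, from -1.27 to 1.49, covers changes of over 1 in both directions.

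*HES1*, a direct Notch target, did not pass the test in FS either. It stood at 4.66 CPM in S1-02, 7.68 in S1-11, 20.3 in S1-12 and 12.8 in S2-06, against 15.4 to 28.0 CPM in PNST (median 21.1) and 8.99 to 31.3 CPM in PWT (median 15.2). In FS the log2 fold change was -0.87 (95% interval -1.70 to -0.04, edgeR adjusted p = 0.163). *HEY1* had only 64 reads over the 16 tumors and did not pass the filter on low counts, so it was not tested. It ranged from 0 to 6.03 CPM in FS, from 0 to 3.46 CPM in PNST and from 0 to 1.71 CPM in PWT. No read was counted in S1-12, S1-05 and S2-11, which allows up to 5.53, 1.75 and 2.24 CPM there (3 counts each).

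**Figure D3:**
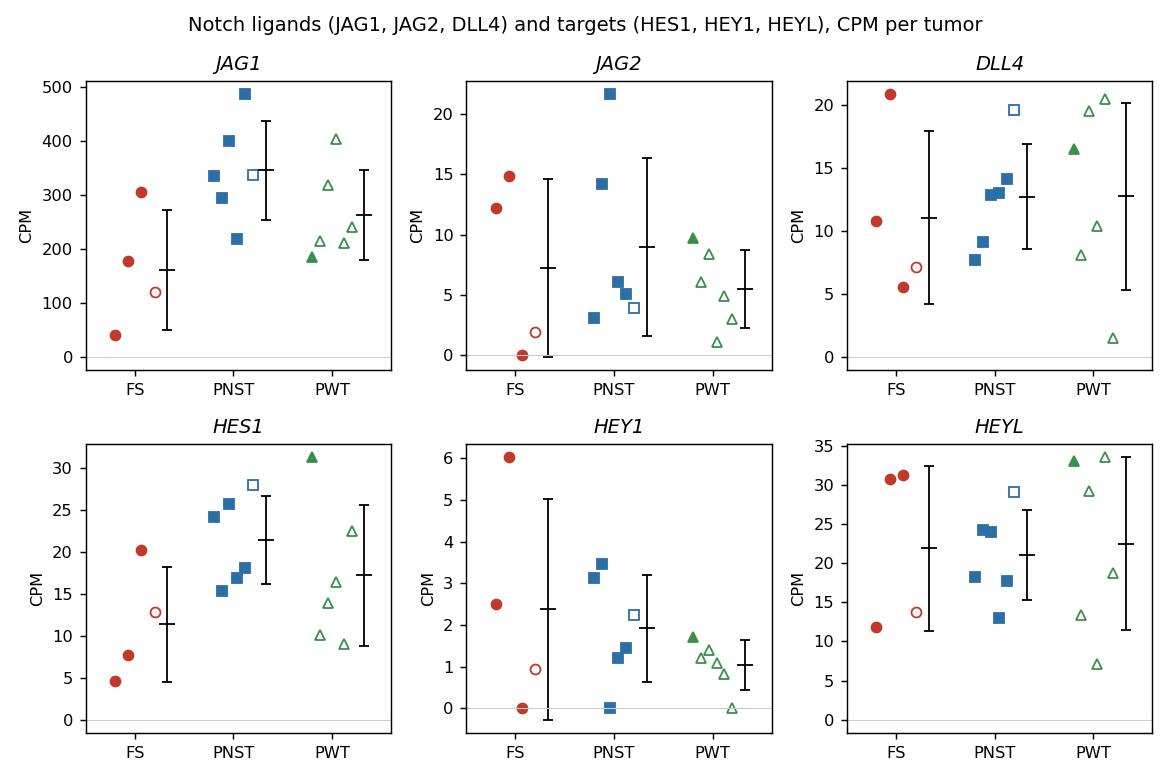
CPM of the 3 ligands and 3 targets (vertical axes, linear) in each tumor, by type, with filled points for S1, open points for S2 and a black bar for the mean with 1 SD. *JAG1* and *HES1* are lowest in the FS S1-02, and the types overlap in all 6 genes.

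**Figure D4:**
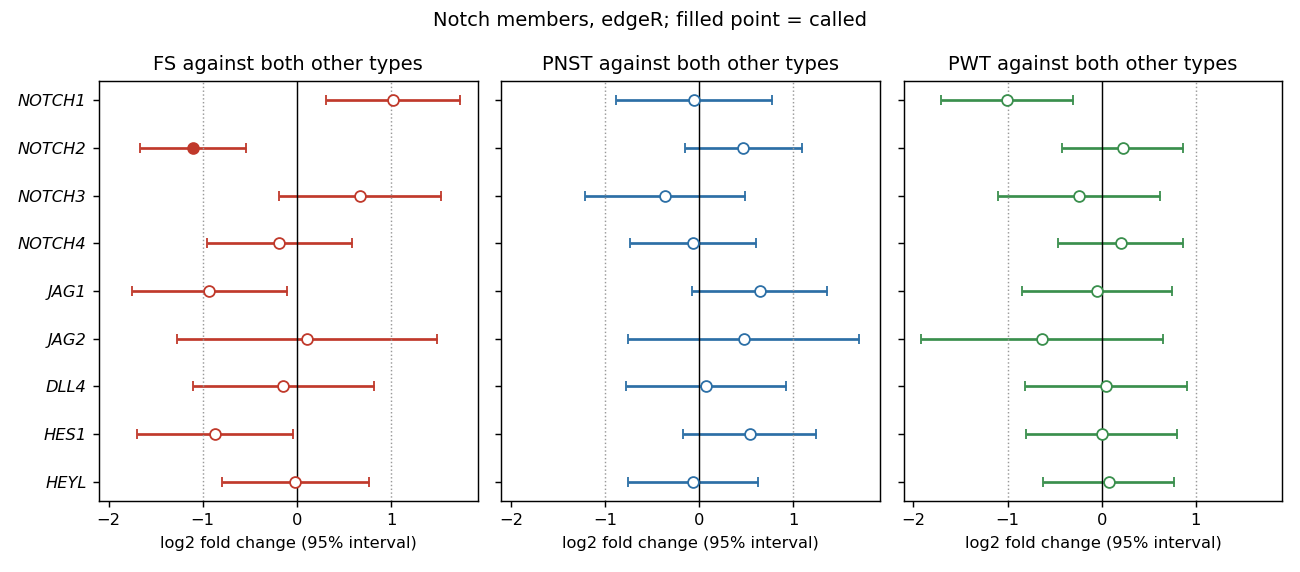
Log2 fold change (horizontal) of the 9 members tested, in each type against both other types pooled, with the 95% interval from the SE and the t distribution. Filled points are called and dotted lines mark the fold limit of 1 in either direction. *NOTCH2* in FS, at -1.10, is the only filled point.

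Beyond the 10 members, 48 other genes of the pathway are reported by role, and 39 of them were tested. In FS against both other types 0 were called higher and 3 lower, the target *HES4*, the protease *ADAM17* and the gamma-secretase subunit *APH1B*. These are 3 of 39, where 9.46% of all genes tested were called, a share no lower than that of the pathway genes. The median log2 fold change of the 39 was 0.03, against 0.00 over all genes tested. *HES4* stood at 3.23 CPM in S1-02, 12.1 in S1-11, 9.21 in S1-12 and 10.4 in S2-06, below the 13.3 CPM of the lowest other tumor. Its log2 fold change was -1.75 (SE 0.401, edgeR adjusted p = 0.00881).

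*ADAM17* and *APH1B* belong to the 2 cuts that release the Notch intracellular domain. *ADAM17*, one of the proteases that sheds the receptor's outer part, stood at 76.7, 70.7, 46.0 and 100.2 CPM in the FS S1-02, S1-11, S1-12 and S2-06, below the lowest other tumor at 106 CPM (log2 fold change -1.32, edgeR adjusted p = 0.00574). *APH1B*, with 3 to 24 reads per FS, stood at 5.53 to 8.61 CPM, below the lowest other tumor at 9.81 CPM (-1.22, edgeR adjusted p = 0.00948). For each of *HES4*, *ADAM17* and *APH1B*, all FS thus lay below every other tumor. This held for 1.64% of all genes tested. The 3 genes were named because they were called lower in FS, which favors such a gap, so that share is no comparison for them. With histology groups 205 of all genes were called in FS against both other types. All 3 calls were lost there, at -0.65 for *HES4* (edgeR adjusted p = 0.531), -0.93 for *ADAM17* (0.135) and -1.01 for *APH1B* (0.0718). That of *APH1B* was also lost without the 5 tumors high in epidermal markers, at -1.20 (edgeR adjusted p = 0.0621). In the S1 tumors alone *HES4* (-1.60, edgeR adjusted p = 0.0623) and *APH1B* (-1.11, edgeR adjusted p = 0.0644) were not called. In PWT against FS, *HES4*, *ADAM17* and *APH1B* were called higher, 3 of 39 where 11.2% of all genes were called. All 3 were lost there with histology groups, *HES4* also with the prefix as a term (1.62, edgeR adjusted p = 0.0504) and *APH1B* without the tumors high in epidermal markers (1.13, edgeR adjusted p = 0.086). In PWT against FS, 5 of all genes were called with histology groups.

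*ADAM10*, the main sheddase of ligand-bound Notch, was at the opposite end of the cleavage genes. Against PNST it was called higher in FS (log2 fold change 1.04, edgeR adjusted p = 0.0207), with 49.7 to 102 CPM in FS and 23.6 to 42.6 CPM in PNST. The ubiquitin ligase *MIB1*, which prepares ligands for signaling, was also called there (1.24, edgeR adjusted p = 0.0265). FS and PNST overlapped in *MIB1*, at 97.9 to 376 CPM against 56.4 to 143 CPM, and without the FS S2-06 its value was 0.79 (edgeR adjusted p = 0.126). PWT overlapped with FS in both genes, at 36.1 to 72.5 CPM of *ADAM10* and 117.5 to 174 CPM of *MIB1*. Neither gene was called in PWT against FS or in FS against both other types (edgeR adjusted p = 0.0573 and 0.075). In PNST against both other types *ADAM10* was at -0.75 and *MIB1* at -0.91 (edgeR adjusted p = 0.196 and 0.201). Of the 39 genes, these 2 were called higher against PNST, and *HES4*, *ADAM17* and *APH1B* lower, which is 5 of 39 where 7.13% of all genes were called. Each of the 5 was lost in several other settings, *ADAM10* and *MIB1* in 8 of 28 each, *APH1B* in 8 of 27, *ADAM17* in 7 of 28 and *HES4* in 6 of 28, for *ADAM10* without S1-11 (0.80) or S1-10 (0.95) among others.

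In PWT against both other types, the pathway genes reported here reached from -1.09 for the corepressor *TLE1* (95% interval -2.40 to 0.22, edgeR adjusted p = 0.299) to 0.71 for *HES4* (95% interval -0.15 to 1.58, edgeR adjusted p = 0.302), and neither was called.

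**Figure D5:**
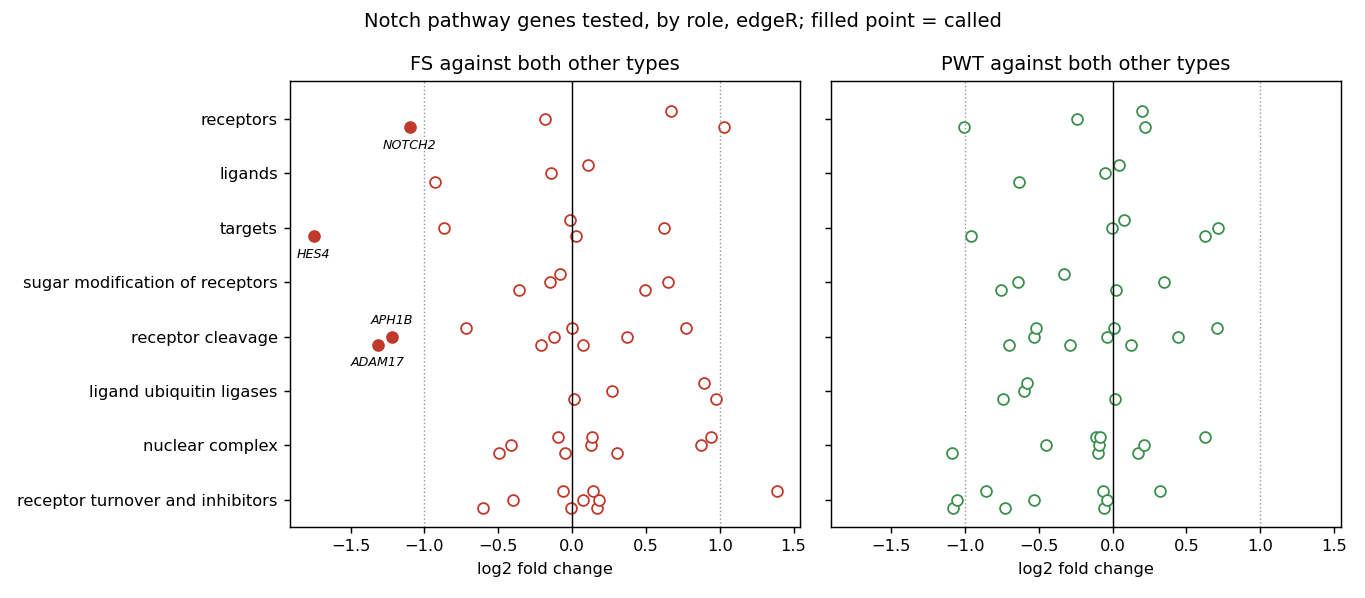
Log2 fold change (horizontal) of the 48 pathway genes tested and reported, members included, by role (vertical), in FS and in PWT against both other types. Filled, named points are called and dotted lines mark the fold limit. *HES4*, *ADAM17*, *APH1B* and *NOTCH2* are filled in FS, all on the lower side.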

How the data were processed

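RNA was extracted from formalin-fixed tumor sections, depleted of ribosomal RNA and sequenced on an Ion Proton. The authors aligned reads to the canine genome ROS-canfam-01 with STAR and deposited raw counts per gene made with htseq-count. Whether counting used strand is not given in the sources used here. Between 22.9% and 30.6% of the reads listed per tumor were on genes. Rows that name no gene were left out. Runs of a tumor were summed, and over members the runs differed by a median chi-square of 0.879 per degree of freedom. The highest value was 4.69, for *NOTCH4* in S1-11, and *NOTCH2* in S1-10 had 4.39.

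Genes reaching 10 counts in 4 or more tumors were tested with edgeR 4.0.16 (R 4.3.3), with TMM scaling, quasi-likelihood and Benjamini-Hochberg adjustment. Each type was compared with both others pooled, and the types in pairs from a single fit of 3 groups. The SE is the log2 fold change divided by the root of F, and intervals use the t distribution with 14 (pooled) or 13 (pairs) degrees of freedom. DESeq2 1.42.0 with its default filtering was an alternative, beside other scalings and filters, the name prefix as a term, histology groups, thinned counts and leaving out each tumor. The scripts were tested on simulated data.

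The members and the lists of pathway and marker genes were chosen with earlier results of these data known. All 10 members are named, with the pathway genes called in any comparison, except 1 listed gene that is not reported here, and the 5 genes ranked most like *NOTCH3* and *HEYL*. Pathway genes below the filter are named in the closing section after their values were seen. No p-value was adjusted over the members alone. P-values measure the spread between tumors, and intervals for counts cover counting error only.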

Additional observations from a re-analysis of the deposited data

Results flagged for a closer look

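In PNST, *NOTCH4* in S1-05 was 43.2 CPM while the other 5 tumors ended at 24.7 CPM, a gap of 0.674 of the group's whole range. This stood out in Dixon's test, of 27 groups of tumors examined, and chance gives about 5% of groups. S1-05 was also the PNST highest in *JAG2* and second to S1-04 in the endothelial markers (603 against 690 CPM).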

How the results depend on the processing

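In FS against both other types, 1 member was called. The count was 2 with RLE scaling, DESeq2, S1-04 and S1-05 summed, or the mean of the other 2 types in a fit of 3 groups (*NOTCH1* in addition), and 0 with no filter on low counts (*NOTCH2* edgeR adjusted p = 0.0517), histology groups or S1 tumors alone (0.0851). Leaving out 1 tumor gave 1 to 2, and without S1-12 the 1 was *JAG1*. In PWT against both others the count was 0, and 1 (*NOTCH1*) with DESeq2 or the 3-group mean. In FS against PNST it was 1, and 0 with histology groups, S1 tumors alone or without the 5 tumors high in epidermal markers, and 1 to 2 when leaving out 1 tumor. In PWT against FS it was 2, then 1 with no filter, thinned counts or without the epidermal-high tumors, 0 with the prefix as a term or histology groups, and 1 to 2 when leaving out 1 tumor. For PNST and for PWT against PNST it was 0 throughout. Over all genes, histology groups gave 205 calls in FS against both others, 0 in FS against PNST and 5 in PWT against FS. The causes were not tested. The settings with 1 prefix alone and without epidermal-high tumors were chosen after seeing the data. Of 1508 values over members, comparisons and settings, 154 changed sign, all with a reported size of at most 0.70 and none with a reported unadjusted p under 0.05. No paired analysis was possible because replicate numbers were given in accession order and pair no tumors.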

Other observations

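Several pathway genes had too few reads for the filter and were looked at by their values. *DLL1*, a Delta-like ligand, had 21, 13, 16 and 8 reads in the FS S1-02, S1-11, S1-12 and S2-06, or 7.53, 7.13, 29.5 and 3.80 CPM. It was at most 2.83 CPM in the 6 PNST and at most 4.90 CPM in the 6 PWT, so only the PWT S2-09 overlapped with FS. Without the filter on low counts it was called in FS against both other types (log2 fold change 2.79, edgeR adjusted p = 0.00878), and so it was by DESeq2 (2.96, adjusted p = 0.000464). *HEY2*, a Notch target of the HEY family, had 7, 3, 4 and 1 reads in the same 4 FS, 1 read over the PNST and 0 over the PWT. It too was called without the filter (edgeR adjusted p = 0.000996), on 16 reads in all. Others went the opposite way. *DLL3*, a Delta-like ligand, had 2 reads over the 4 FS against 60 over the PNST and 17 over the PWT, and without the filter it was not called in FS against both other types (edgeR adjusted p = 0.114), while DESeq2 called it in FS against PNST (-3.39, adjusted p = 0.0474). *MAML3*, a coactivator of the Notch complex, had a median of 0.48 CPM in FS, 2.66 in PNST and 2.38 in PWT and was not called (edgeR adjusted p = 0.343). All 4 genes were picked after their values were seen.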
